A study of Anser cygnoides with 6 samples.

Results

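The genes described here are the receptors through which the goose ovary can read estrogens, progestins and corticosteroids. They were taken by symbol from a deposited table of the ovary transcriptome of Anser cygnoides, the swan goose, where a blank symbol was filled from the RefSeq gene identifier. The rule lists 9 genes, of which 8 were found among the 14696 genes of the table: ESR1, ESR2, PGR, NR3C1, NR3C2, PAQR5, PAQR8 and PGRMC2. PGRMC1 matched no row by symbol or identifier and was skipped. The set is wider than the sex steroid receptors, since NR3C1 and NR3C2 bind corticosteroids, and a receptor for androgens was not analysed here.

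The ovaries came from 2 groups with 3 libraries each. The broody group was labelled as being at the stage of broodiness and, per the labels' protocols, had been put through forced moulting and short illumination. The reproductive group was labelled as being at the stage of reproduction. Per the same protocols, geese of both groups were grown to 40 weeks of age in a light-controlled house with a day of 11 h light and 13 h dark, so whether light differed between the groups is not clear from the labels. Broodiness cannot be told apart from moulting in this design. Sample labels name ovary while the series' design text names oviduct, and nothing in the labels states that each library is a different bird. The p-values therefore reflect the variation between these libraries, part of which may be technical.

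Steroids act on these cells through receptors of different kinds. Nuclear receptors sit in the cell with chaperones, bind the hormone, move onto DNA at response elements and recruit coactivators or corepressors. Membrane progestin receptors of the PAQR family sit in the cell membrane, and the heme-binding PGRMC proteins form another class linked to progesterone. In the bird ovary, granulosa and theca cells make the steroids, the theca and stroma of the follicle wall contain smooth muscle, and in mammals estrogen receptor beta is the main estrogen receptor of granulosa cells whereas estrogen receptor alpha prevails in theca and stroma.

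The libraries carried ovarian transcripts. Of 8 oocyte and germ cell markers found, 8 were tested and 8 were higher in broody libraries, or 6 with median-ratio scaling, 3 without broody 3 and 4 without reproductive 1. The granulosa marker FOXL2, a transcription factor of ovarian identity, averaged 75.7 ± 9.97 FPKM in broody and 26.9 ± 10.7 FPKM in reproductive libraries (SD, n = 3 each). Of the 11 egg white genes listed for the oviduct, 3 were found, and they summed to between 1.34 and 5.19 FPKM in broody and between 2.78 and 73.8 FPKM in reproductive libraries. The 73.8 belonged to reproductive 2 and was nearly all TF, transferrin, which tissues other than oviduct make too. Its source was not tested. Reproductive 2 also had the lowest sum of oocyte markers, 137 FPKM against 376 in reproductive 1 and 619 in reproductive 3. Whether the tissue sampled differed in that library was not tested. Markers of other cells differed in part. Lower in broody were 9 of 9 tested macrophage markers and 2 of 7 tested theca markers (1 without reproductive 1, 2 or 3). Of 3 tested surface epithelium markers 1, EPCAM, was higher, a call lost without broody 3. Beside these and the marker counts below stand 29.9% of all tested genes higher and 12.0% lower in broody. FPKM count sequenced fragments relative to transcript length and to the library's total of mapped fragments, so levels can be set side by side between genes, but the number of reads behind a value is unknown.

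Of the 8 receptors, PGR and ESR1 fell and ESR2 and NR3C2 rose in broody ovaries, while NR3C1 and PGRMC2 did not pass the test and PAQR5 and PAQR8 were too low to be tested. The call of NR3C2 was lost under each of the 3 scalings tried. PGR, the nuclear progesterone receptor, averaged 16.1 ± 7.78 FPKM in broody and 65.2 ± 27.9 FPKM in reproductive libraries (SD, n = 3 each). The broody mean of ESR1, estrogen receptor alpha, was 0.553 times its reproductive mean, and that of ESR2, estrogen receptor beta, was 2.56 times its reproductive mean. The nuclear receptors for estrogen therefore moved in opposite directions, under each of the 3 scalings tried as under none. Differences below are of mean log2(FPKM + 1), broody minus reproductive, by limma with Benjamini-Hochberg adjustment over 11377 tested genes and a threshold of 0.05.

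**Figure D1:**
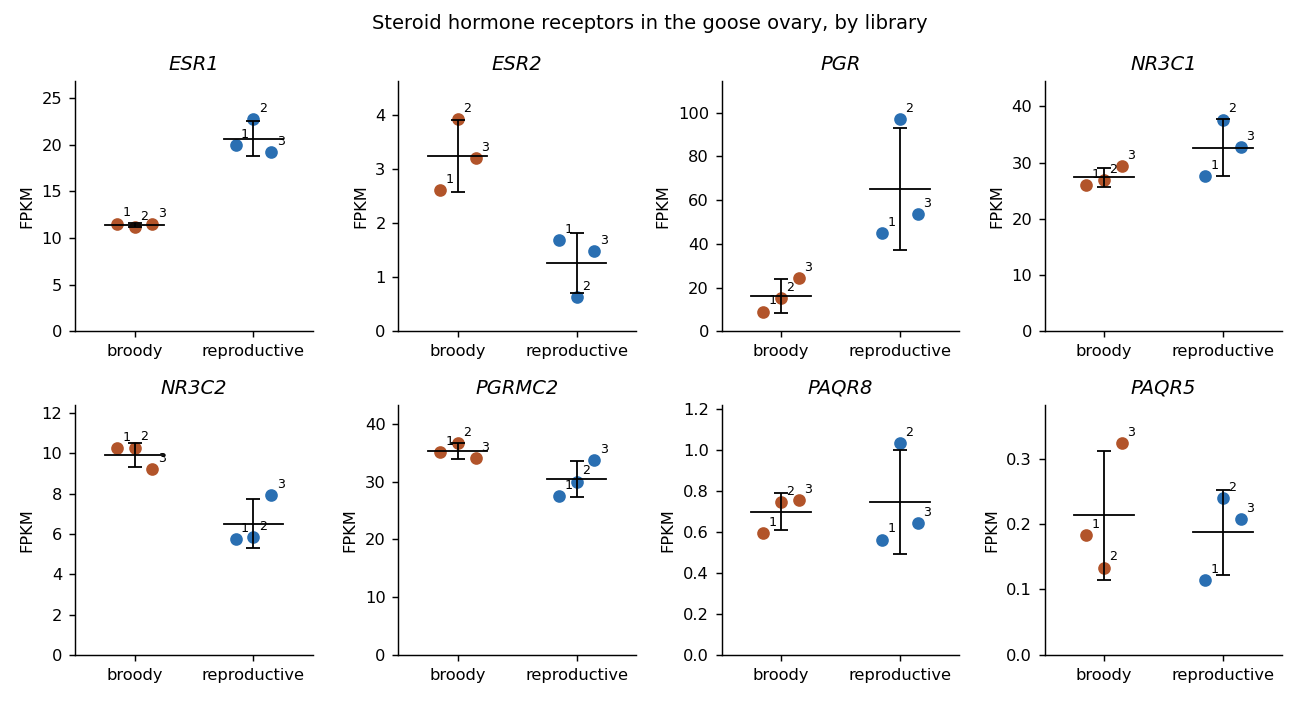
FPKM of the 8 receptors in each library, with the replicate number beside each point. Horizontal lines are group means and bars are the SD of 3 libraries, on linear axes that start at 0 and differ between panels. PGR and ESR1 lie lower, and ESR2, NR3C2 and PGRMC2 higher, in each broody library than in any reproductive library. PGRMC2 did so by little and was not called.

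With 4 of 6 tested receptors called, 2 in each direction, the share has to be read against a comparison in which 41.9% of all tested genes were called, 29.9% as higher and 12.0% as lower in broody. The groups did not overlap for 5 of the 6 tested receptors, against 59.5% of tested genes. For 3 of them, ESR2, NR3C2 and PGRMC2, broody lay above (41.3% of tested genes), and for 2, PGR and ESR1, broody lay below (18.2%). The share of receptors called, 66.7%, was above that of all tested genes, but 6 genes are too few to set them apart from the transcriptome at large. The median difference over all tested genes was 0.23 on the log2 scale, and median-ratio scaling of the libraries brought it to 0.00. With that scaling 35.4% of genes were called, 16.7% as higher and 18.8% as lower, and 1 receptor was called higher and 2 lower. Each receptor call made without scaling was lost without broody 1 and without broody 2, and those of ESR2 and NR3C2 also without broody 3. Without broody 1, or without broody 2, limma called 0 of the 6 receptors at the adjusted threshold, although 4 still had an unadjusted p under 0.05, and it called 1 of all tested genes.

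PGR binds progesterone and is the receptor through which it controls transcription in the follicle and the oviduct. It measured 8.97, 14.995 and 24.4 FPKM in broody 1, 2 and 3, against 45.0, 97.1 and 53.7 FPKM in reproductive 1, 2 and 3. The highest broody library was below the lowest reproductive library, and the libraries within a group spread widely, with a coefficient of variation of 48.3% in broody and 42.8% in reproductive. PGR fell by 1.98 ± 0.39 on the log2 scale (SE, adjusted p = 0.0172), a difference lower than that of all but 0.730% of tested genes, in which PGR itself is counted. On that ranking from the lowest difference upward, the other tested receptors stood at 7.98% (ESR1), 23.6% (NR3C1), 48.7% (PGRMC2), 70.2% (NR3C2) and 88.1% (ESR2). The 95% interval of PGR ran from -2.88 to -1.07. The adjusted p was 0.0657 without broody 1 and 0.0663 without broody 2. In bulk tissue, fewer cells that express a receptor and less of its RNA per cell cannot be told apart, here or for the receptors that follow.

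Smooth muscle markers and most stroma markers were lower in broody libraries, like PGR. Of 14 smooth muscle markers listed, 10 were found and 10 were lower in broody, with summed levels of 416 to 1152 FPKM in broody and 3651 to 7991 FPKM in reproductive libraries. The fibroblast and stroma markers, 11 found of 12 listed, were lower for 9, or 11 with median-ratio scaling, and summed to 444 to 993 FPKM in broody and 2490 to 3416 FPKM in reproductive libraries. No listed marker that was found stood at 0 in all libraries. Broody 3 had the highest sum of both lists in its group and also the highest PGR, and so did reproductive 2 in its group. Reproductive 1, however, had the lowest PGR of its group but higher sums than reproductive 3. These were 5320 against 3651 FPKM for smooth muscle and 3315 against 2490 FPKM for stroma. The part of these cell types in the difference of PGR was not tested.

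Dividing PGR by these sums, a description chosen after the values were seen, gave a different picture for each list. Per 1000 FPKM of smooth muscle markers, PGR came to 21.6, 27.5 and 21.2 FPKM in broody 1, 2 and 3, against 8.45, 12.1 and 14.7 FPKM in reproductive 1, 2 and 3. On that measure each broody library lay above each reproductive library, because the muscle markers differed by more than PGR did. Per 1000 FPKM of stroma markers the means were 23.2 ± 2.61 FPKM in broody and 21.2 ± 7.43 FPKM in reproductive libraries (SD, n = 3 each), and the groups overlapped. Per endothelial, granulosa or oocyte markers each broody library stayed below each reproductive library. The means there were 130 ± 50.1 against 296 ± 82.6 FPKM for endothelial and 37.5 ± 18.6 against 406 ± 253 FPKM for granulosa markers. For oocyte markers they were 13.4 ± 5.46 against 305 ± 350 FPKM. That last mean was carried by reproductive 2, at 709 FPKM against 120 in reproductive 1 and 86.7 in reproductive 3.

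ESR1, a transcription factor that binds estradiol, was the most even of the receptors. It measured 11.5, 11.1 and 11.5 FPKM in broody 1, 2 and 3, against 20.0, 22.7 and 19.2 FPKM in reproductive 1, 2 and 3. The coefficient of variation was 1.99% in broody and 9.05% in reproductive libraries. ESR1 fell by 0.80 ± 0.13 on the log2 scale (SE, adjusted p = 0.0138), with a 95% interval from -1.10 to -0.50. The call was lost without broody 1 (adjusted p = 0.0648) and without broody 2 (adjusted p = 0.0663).

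ESR1 was divided by the same marker sums, again after the values were seen, and the groups overlapped only for the endothelial list. Of 10 endothelial markers found, 7 were lower and 1 higher in broody. By limma 4 were lower and 0 higher without reproductive 2. Without reproductive 1, or with the replicate block, 5 were lower and 0 higher. With median-ratio scaling 7 were lower and 0 higher. The markers summed to 111 to 135 FPKM in broody and 195 to 251 FPKM in reproductive libraries. ESR1 per 1000 FPKM of these markers was 95.3 ± 9.39 FPKM in broody and 96.5 ± 5.08 FPKM in reproductive libraries (SD, n = 3 each), with overlapping groups. Per 1000 FPKM of smooth muscle markers it was instead 19.4 ± 8.93 FPKM in broody and 3.95 ± 1.22 FPKM in reproductive libraries, and the groups did not overlap. Per stroma markers broody lay above too, at 18.7 ± 7.22 against 6.79 ± 0.853 FPKM in reproductive libraries. Broody lay below per granulosa markers (26.8 ± 3.52 against 125 ± 41.6 FPKM) and per oocyte markers (9.65 ± 0.715 against 83.4 ± 72.5 FPKM). The part of these cell types in the difference of ESR1 was not tested.

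ESR2 was the lowest of the nuclear receptors in either group. It measured 2.60, 3.91 and 3.19 FPKM in broody 1, 2 and 3, against 1.67, 0.625 and 1.48 FPKM in reproductive 1, 2 and 3. The lowest broody library was above the highest reproductive library, and reproductive 2 was the lowest of the 6. ESR2 rose by 0.93 ± 0.23 on the log2 scale (SE, adjusted p = 0.0223), with a 95% interval from 0.38 to 1.47. At levels this low the added pseudocount matters, and the difference was 1.38 with a pseudocount of 0.1. The call was lost without broody 1, broody 2 or broody 3, with adjusted p of 0.0674, 0.0784 and 0.0523.

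Granulosa markers moved in both directions. Of 9 found of 10 listed, 7 were tested, 2 were higher and 2 lower in broody, but 0 were lower by limma without broody 3, without reproductive 1, without reproductive 2 or with the replicate block. NR5A2, 1 of the 2 lower, reached the 1 FPKM required for testing only in the reproductive libraries. Its call is therefore not counted as support. INHBA, the other lower marker, averaged 1.54 ± 0.333 FPKM in broody and 3.32 ± 1.22 FPKM in reproductive libraries. The 2 higher were FOXL2 and AMH, while FSHR, CYP19A1 and FST overlapped between the groups and were not called. The summed level of the list was 387 to 486 FPKM in broody and 140 to 238 FPKM in reproductive libraries. Division by marker sums was chosen after the values were seen here too. ESR2 per 1000 FPKM of granulosa markers was 6.71, 8.05 and 7.64 FPKM in broody 1, 2 and 3, against 11.1, 4.47 and 6.22 FPKM in reproductive 1, 2 and 3. These values overlapped, with means of 7.47 ± 0.690 FPKM in broody and 7.25 ± 3.41 FPKM in reproductive libraries (SD, n = 3 each). ESR2 per 1000 FPKM of oocyte markers overlapped too, at 2.75 ± 0.695 FPKM in broody and 3.805 ± 1.22 FPKM in reproductive libraries. Per smooth muscle, stroma or endothelial markers the groups lay apart, with broody above, as for smooth muscle at 5.398 ± 2.32 FPKM in broody and 0.266 ± 0.169 FPKM in reproductive libraries. The part of granulosa cells in the difference of ESR2 was not tested. AMH, a hormone of granulosa cells in small follicles, averaged 241 ± 47.7 FPKM in broody and 57.2 ± 6.33 FPKM in reproductive libraries. It carried most of the sum in each broody library, but not in the reproductive ones.

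**Figure D2:**
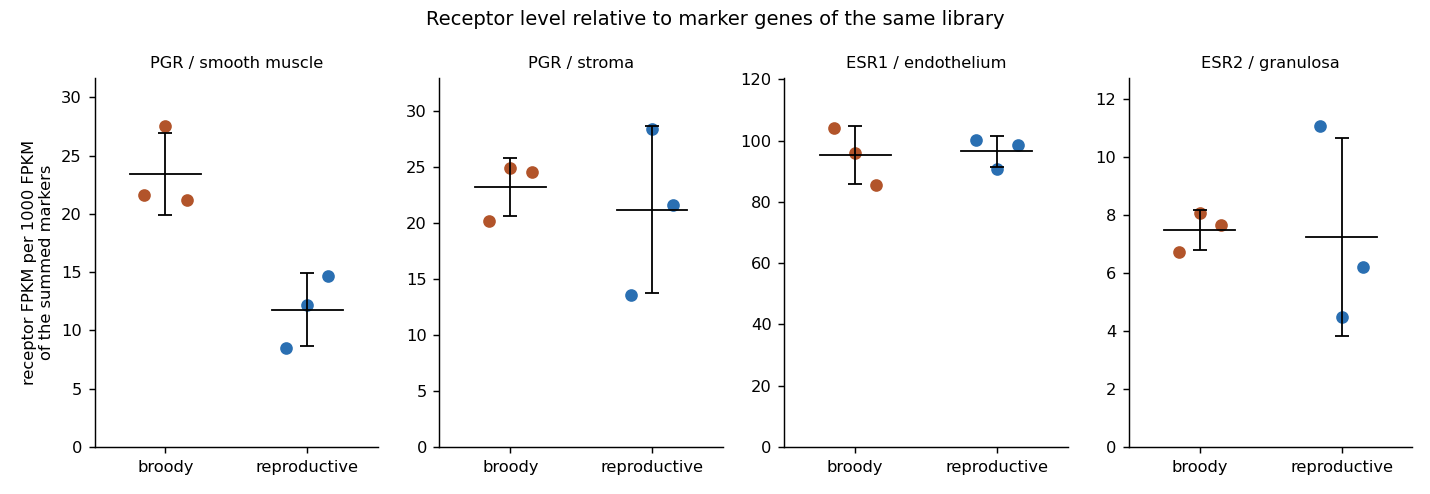
Receptor FPKM per 1000 FPKM of a summed marker list in the same library, with group means and SD of 3 libraries on linear axes from 0. PGR per smooth muscle is higher in each broody library than in any reproductive library, whereas PGR per stroma, ESR1 per endothelium and ESR2 per granulosa overlap between the groups. The pairs shown were chosen after the values were seen. On each list not shown here, the groups lay apart for PGR and for ESR1. For ESR2 they lay apart per smooth muscle, stroma and endothelial markers and overlapped per oocyte markers. NR3C1 and NR3C2, divided likewise but not shown, lay apart on each list. Broody was above per smooth muscle, stroma and endothelial markers and below per granulosa and oocyte markers. For NR3C2 per granulosa the means were 23.2 ± 2.82 FPKM in broody and 37.7 ± 4.37 FPKM in reproductive libraries.

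Ratios between receptors of 1 library do not change when the whole library is multiplied by a factor. Quantile normalization is no such factor, and the ratios were not computed under it. ESR1 exceeded ESR2 by 4.45, 2.85 and 3.61 times in broody 1, 2 and 3, and by 11.9, 36.4 and 12.9 times in reproductive 1, 2 and 3. The mean log2 ratio was 1.84 ± 0.32 in broody and 4.15 ± 0.90 in reproductive libraries (SD, n = 3 each), a difference of -2.31. PGR relative to ESR1 was 0.777, 1.35 and 2.12 in broody 1, 2 and 3, against 2.25, 4.27 and 2.80 in reproductive 1, 2 and 3, a difference of -1.20 in log2 ratio. NR3C1 relative to NR3C2 was 2.54, 2.62 and 3.18 in broody and 4.80, 6.43 and 4.14 in reproductive libraries, a difference of -0.86. For each of these 3 ratios the groups did not overlap and the exact two-sided permutation p was 0.10, the smallest that 3 against 3 libraries allow, or 0.133 adjusted over the 4 ratios tested. With only the leading transcript of each gene, the groups overlapped for ESR1 to ESR2 (-3.05, exact permutation p = 0.30) and for PGR to ESR1 (-0.65, exact permutation p = 0.70). PAQR8 relative to PAQR5 overlapped between the groups, with an exact permutation p of 0.70.

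The corticoid receptors differed from each other. NR3C2, the mineralocorticoid receptor, which also binds glucocorticoids and progesterone, measured 10.2, 10.3 and 9.23 FPKM in broody 1, 2 and 3, against 5.74, 5.86 and 7.93 FPKM in reproductive 1, 2 and 3. The groups did not overlap, and NR3C2 rose by 0.55 ± 0.16 on the log2 scale (SE, adjusted p = 0.0332). This call was the weakest of the 4. It was lost under the median-ratio, upper-quartile and quantile scalings (adjusted p = 0.0990, 0.111 and 0.0633), where the difference was 0.32, 0.31 and 0.39. Leaving out any library other than reproductive 3 ended it as well, with adjusted p of 0.0627 to 0.109.

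NR3C1, the glucocorticoid receptor, measured 26.0, 26.9 and 29.3 FPKM in broody 1, 2 and 3, against 27.5, 37.7 and 32.8 FPKM in reproductive 1, 2 and 3. Broody 3 lay above reproductive 1, so the groups overlapped. The difference was -0.24 with a 95% interval from -0.58 to 0.11 (adjusted p = 0.229). It passed the threshold with upper-quartile scaling (-0.50, adjusted p = 0.0490) and with quantile normalization (-0.48, adjusted p = 0.0480), and had an adjusted p of 0.0527 with median-ratio scaling.

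Of the receptors outside the nucleus, PGRMC2 was by far the most abundant. This heme-binding protein of internal membranes measured 35.1, 36.7 and 34.1 FPKM in broody 1, 2 and 3, against 27.5, 30.0 and 33.7 FPKM in reproductive 1, 2 and 3. The broody libraries lay above the reproductive ones, by little between broody 3 and reproductive 3. The difference of 0.21 had a 95% interval from -0.09 to 0.51 (adjusted p = 0.207), was close to the median of all tested genes, and turned to -0.04 with median-ratio, -0.05 with upper-quartile and -0.05 with quantile scaling.

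The membrane progestin receptors PAQR5 and PAQR8, known as mPR gamma and mPR beta, were low. PAQR5 was above 13.8% of all genes in the broody group and above 13.2% in the reproductive group. For PAQR8 these shares were 20.4% and 21.4%. PAQR8 measured 0.593, 0.745 and 0.755 FPKM in broody 1, 2 and 3, against 0.562, 1.03 and 0.641 FPKM in reproductive 1, 2 and 3. PAQR5 measured 0.183, 0.133 and 0.324 FPKM in broody 1, 2 and 3, against 0.115, 0.240 and 0.208 FPKM in reproductive 1, 2 and 3. The groups overlapped for both, and neither reached 1 FPKM in 3 libraries, the level required for testing. In a fit with no such filter the differences were -0.03 for PAQR8 (95% interval -0.31 to 0.24, adjusted p = 0.852) and 0.03 for PAQR5 (95% interval -0.15 to 0.21, adjusted p = 0.784), on a scale whose pseudocount of 1 exceeds most of these values.

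**Figure D3:**
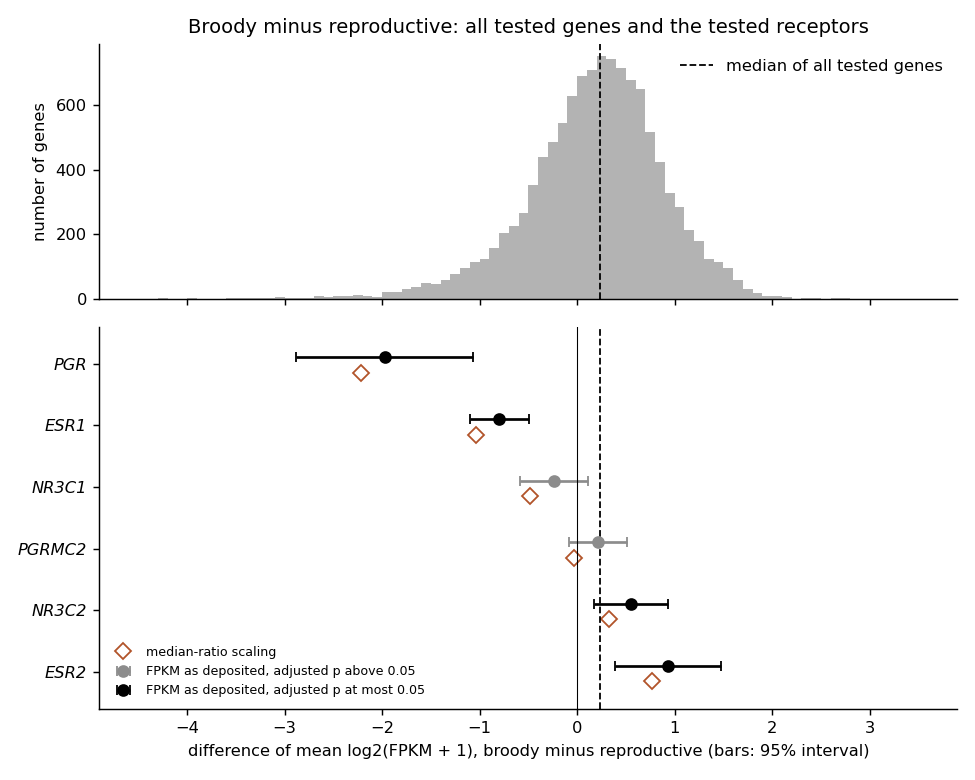
Upper panel, number of tested genes by difference of mean log2(FPKM + 1), broody minus reproductive, with the median of 0.23 as a dashed line. Lower panel, the 6 tested receptors with 95% intervals, and open diamonds for median-ratio scaling. PGR and ESR1 lie left of 0 and ESR2 right of 0 under both scalings.

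The order of the receptors by level changed mainly through PGR. In broody libraries the means ran from PGRMC2 (35.3 FPKM) over NR3C1 (27.4), PGR (16.1), ESR1 (11.4), NR3C2 (9.92), ESR2 (3.23) and PAQR8 (0.698) to PAQR5 (0.213), and the library ranges of neighbours overlapped only for PGR and ESR1. In reproductive libraries the order was PGR (65.2 FPKM), NR3C1 (32.7), PGRMC2 (30.4), ESR1 (20.6), NR3C2 (6.51), ESR2 (1.26), PAQR8 (0.745) and PAQR5 (0.187). There the ranges overlapped for NR3C1 and PGRMC2 and for ESR2 and PAQR8. Among all genes in the table, PGR was above 64.8% of genes in the broody group and above 94.4% in the reproductive group.

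The table lists 21 transcript models for the 8 receptors, 5 of which have a single model each. ESR1 had 5 models with different behaviour. The most abundant measured 9.65, 4.76 and 3.44 FPKM in broody 1, 2 and 3, against 16.7, 14.3 and 12.1 FPKM in reproductive 1, 2 and 3, and its groups did not overlap. Its share of the ESR1 total was 83.5% in broody 1, 42.7% in broody 2 and 29.8% in broody 3, against 83.9%, 62.8% and 63.1% in reproductive 1, 2 and 3. The fourth model measured 2.29 and 3.17 FPKM in broody 2 and broody 3, and between 0.0131 and 0.0373 FPKM in broody 1 and the reproductive libraries. The third was listed at 0 in broody 1 and at 0.00674 FPKM in reproductive 1, and at 2.17 to 3.79 FPKM in the other 4 libraries. Used in place of the sum, the most abundant model gave ESR1 a difference of -1.24 (adjusted p = 0.0432).

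ESR2 was likewise divided among models, at levels where 1 model can be listed at 0. Its leading model took 7.66% of the total in broody 1, 68.5% in broody 2 and 75.4% in broody 3, against 4.11%, 100% and 65.6% in reproductive 1, 2 and 3. The second took 68.9% in broody 1 and 63.7% in reproductive 1. Of 6 models, 1 was listed at 0 in all libraries, and no model alone was high enough to be tested in the way the sum was. PAQR8 had 5 models, of which 1 carried the whole level in 5 libraries, while in broody 3 another took 68.8%. How the authors' software divided reads among overlapping models was not tested, and the sums over models varied less within a group than the models did for ESR1.

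**Figure D4:**
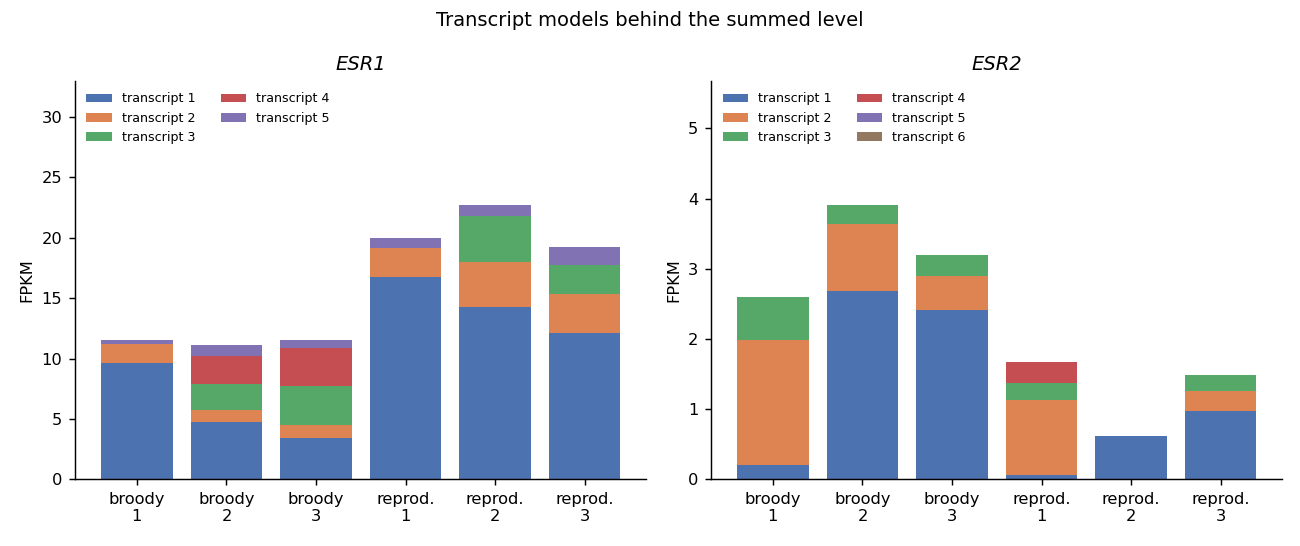
FPKM of ESR1 and ESR2 in each library, stacked by transcript model in order of mean FPKM over all libraries, on linear axes from 0. The ESR1 totals of the broody libraries are alike at 11.1 to 11.5 FPKM while the models that make them up differ, and broody 1 and reproductive 1 share a second model as the largest part of ESR2.

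Genes whose profile over the 6 libraries was closest to that of a receptor were looked up among 8096 named genes with a mean of at least 5 FPKM. Likeness was the root-mean-square difference between log2(FPKM + 1) profiles, each centred on its own mean, and smaller values are closer. For PGR the closest were SYNPO2, an actin-binding protein of smooth muscle (0.18), MFAP5, a protein of elastic microfibrils (0.22), and SCUBE2, a secreted protein (0.22). SYNPO2 measured 10.5, 15.8 and 22.3 FPKM in broody 1, 2 and 3, against 57.4, 86.5 and 54.8 FPKM in reproductive 1, 2 and 3, and is also on the smooth muscle list. For ESR1 they were CAPZA2, an actin capping protein (0.041), MSN, the membrane linker moesin (0.055), and CREB1, a transcription factor of cyclic AMP signalling (0.061). For ESR2 they were ASB7 (0.084), ORC5, a subunit of the origin recognition complex (0.085), and WDHD1, a DNA replication protein (0.089). For NR3C2 they were MALT1, a protease of NF-kappaB signalling (0.033), NR6A1, the germ cell nuclear factor (0.033), and ATG3, an autophagy enzyme (0.037). Each gene named here was called in the direction of its receptor, so the group difference is part of such likeness. How many other genes come close was not counted.

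Genes around the receptors are described by lists, whose counts rest on the calls over all tested genes. As limma made 1 such call without broody 1, and 1 without broody 2, the list counts rest on both libraries too. Each list's counts have to be read against the 41.9% of all tested genes called, 29.9% as higher and 12.0% as lower. Chaperones of the nuclear receptors were called at a share close to that of all tested genes. Of 13 tested, 4 were higher and 1 lower in broody, or 38.5% called against 41.9% of all tested genes, with a median of 0.48 against 0.23 over all genes. With median-ratio scaling 3 were higher and 1 lower, and the median was 0.23, against 0.00 over all genes. Without reproductive 2 the median was 0.21. PTGES3, the p23 cochaperone that stabilises receptor complexes, rose to 64.0 ± 8.24 FPKM in broody against 35.8 ± 6.08 FPKM in reproductive libraries (log2 difference 0.83, limma adjusted p = 0.0178). HSPA4, a heat shock protein of the HSP110 type, rose by 0.94, and STUB1, a ubiquitin ligase that works with chaperones, by 0.75, or by 0.50 with upper-quartile scaling. The immunophilins FKBP4 and FKBP5, chosen after their values were seen, differed in direction. FKBP4, which favours progesterone receptor activity in mammals, rose by 0.52 (adjusted p = 0.0462, 0.170 with median-ratio scaling, where the difference was 0.26, and 0.0626 to 0.0830 without broody 3, reproductive 1 or reproductive 2), while FKBP5, which dampens glucocorticoid receptor activity and is itself induced by progestins and glucocorticoids, fell by 0.90 (adjusted p = 0.0402, and 0.0696 to 0.105 without broody 3, reproductive 1 or reproductive 3). FKBP5 averaged 17.2 ± 4.21 FPKM in broody and 33.7 ± 11.4 FPKM in reproductive libraries (SD, n = 3 each). HSP90AA1, the central chaperone of these receptors, was not called, at 683 ± 115 FPKM in broody and 727 ± 199 FPKM in reproductive libraries. Its difference of -0.07 turned positive with quantile normalization (0.56) and without broody 3 (0.07) or reproductive 1 (0.14).

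The coregulators called went in both directions. Of 14 coactivators tested, 3 were higher and 1 lower, or 28.6% against 41.9% of all tested genes, with a median of 0.12, or -0.11 with median-ratio scaling. Without reproductive 3, 5 were higher and 1 lower. PPARGC1A, a coactivator of mitochondrial genes, rose by 1.21 to 3.68 ± 0.320 FPKM in broody against 1.05 ± 0.418 FPKM in reproductive libraries. NCOA7, an estrogen receptor associated protein, rose by 0.89, and DDX17, an RNA helicase that coactivates steroid receptors, fell by 0.66, with adjusted p of 0.0136 to 0.0185 for the 3 genes by limma. Of 11 corepressors 1 was higher and 1 lower, or 18.2%, with a median of 0.14, and with median-ratio scaling 0 were higher and 1 lower by limma, with a median of -0.10. Without reproductive 2 no corepressor was called by limma. PHB2, a prohibitin that represses estrogen receptors, rose by 0.68, a call lost with median-ratio scaling (0.43, adjusted p = 0.0815) and without reproductive 2 (adjusted p = 0.0512). TBL1XR1, a subunit of the NCOR complex, fell by 0.55, but its leading transcript alone had a difference of 0.03, and the call was lost without broody 3, reproductive 2 or reproductive 3 (adjusted p = 0.0504 to 0.0622). The p160 coactivators NCOA2 and NCOA3, named after their values were seen, had differences of -0.12 and -0.01, or -0.36 and -0.26 with median-ratio scaling, and were not called.

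Genes that respond to estrogen in mammals moved in both directions. Of 12 tested besides PGR, 4 were lower and 2 higher in broody, with a median of -0.05 against 0.23 over all genes. IGF1, a growth factor, measured 1.503, 3.05 and 5.07 FPKM in broody 1, 2 and 3, against 29.0, 17.8 and 16.6 FPKM in reproductive 1, 2 and 3. It fell by 2.45 ± 0.35 on the log2 scale (SE, adjusted p = 0.0125), and its groups lay far apart. CCND1, a cyclin of G1 phase, fell by 0.92, whereas TGFA, a ligand of the EGF receptor, rose by 0.70, or by 1.06 with a pseudocount of 0.1. GREB1, a cofactor of estrogen receptor alpha and named after its values were seen, averaged 65.8 ± 19.2 FPKM in broody and 114 ± 11.3 FPKM in reproductive libraries, a difference of -0.82 (adjusted p = 0.0237, 0.0560 without reproductive 1, and 0.0970 for its leading transcript alone). Without reproductive 1, 1 of the list was lower and 0 higher by limma, and TGFA had an adjusted p of 0.0517 and CCND1 of 0.0501. Without broody 3, 2 of the list were lower and 1 higher, and CCND1 then had an adjusted p of 0.0515. With the replicate block 3 were lower and 0 higher by limma. With median-ratio scaling 4 were lower and 1 higher, with a median of -0.30.

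Progesterone-responsive genes, again from mammals, showed no shared direction. Of 13 tested, 4 were higher and 2 lower in broody, or 46.2% called, with a median of 0.15, and with median-ratio scaling 3 were higher and 4 lower, with a median of -0.11. Without broody 3 the list had 2 higher and 1 lower, and without reproductive 3 it had 6 higher and 1 lower. The median was 0.07 without reproductive 2. ADAMTS1, a protease that depends on PGR in the ovulating follicle of mice, measured 21.4, 20.8 and 25.1 FPKM in broody 1, 2 and 3, against 40.4, 36.2 and 38.4 FPKM in reproductive 1, 2 and 3. It fell by 0.75 ± 0.13 (SE, adjusted p = 0.0154), like PGR in direction. EDN2, an endothelin that also depends on PGR in the mouse follicle, rose instead by 0.93, to 30.0 ± 8.30 FPKM in broody against 15.1 ± 3.69 FPKM in reproductive libraries. HSD17B2, which inactivates estradiol, rose by 0.96.

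Corticoid-responsive genes were few and mixed. Of 9 glucocorticoid-responsive genes tested, 3 were lower and 1 higher, or 44.4% called against 41.9% of all tested genes, with a median of -0.08. That median was unstable, at -0.37 without broody 1, -0.48 without broody 2, -0.38 without reproductive 2, 0.04 without reproductive 3 and -0.33 with median-ratio scaling. CRISPLD2, a secreted protein, fell by 1.43 to 28.3 ± 5.11 FPKM in broody against 80.3 ± 29.2 FPKM in reproductive libraries, NFKBIA, which holds NF-kappaB in the cytoplasm, fell by 0.68, and DUSP1, a phosphatase of MAP kinases, rose by 0.49, or by 0.24 with median-ratio scaling, where it was not called (adjusted p = 0.182), nor was it without broody 3 (adjusted p = 0.0853). TSC22D3, a widely used marker of glucocorticoid action named after its values were seen, had 19.7 ± 5.07 FPKM in broody and 20.2 ± 2.59 FPKM in reproductive libraries and was not called. Of 5 mineralocorticoid-responsive genes 1 was called, or 20.0%. ATP1B1, the beta subunit of the sodium pump, rose by 0.96, to 45.9 ± 2.93 FPKM in broody against 24.1 ± 8.47 FPKM in reproductive libraries, with an adjusted p of 0.0237, and 0.0505 without broody 3.

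**Figure D5:**
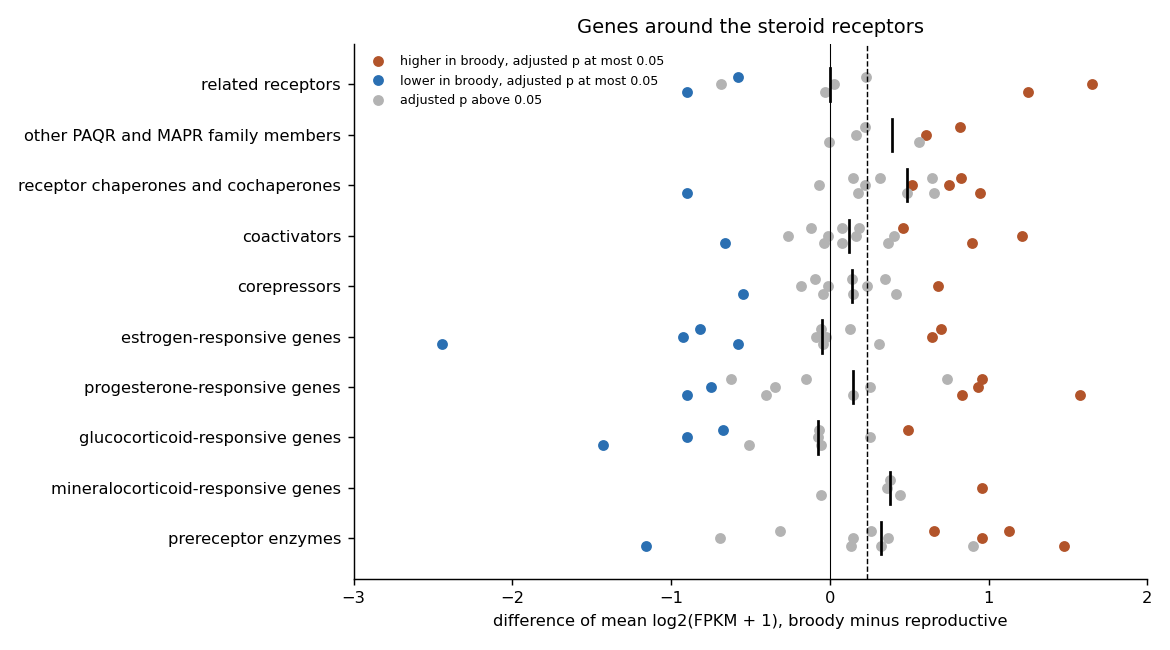
Difference of mean log2(FPKM + 1), broody minus reproductive, of each tested gene in 10 lists around the receptors, with the receptors themselves left out. Black bars are list medians and the dashed line is the median of all tested genes, 0.23. Estrogen-responsive genes reach from -2.45 for IGF1 to 0.70 for TGFA.

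Among relatives of the receptors, 2 were higher and 2 lower of 8 tested, with a median of -0.002, or -0.25 with median-ratio scaling. ESRRB, an orphan receptor related to the estrogen receptors that binds no estrogen, measured 9.45, 8.01 and 17.3 FPKM in broody 1, 2 and 3, against 3.93, 0.971 and 4.70 FPKM in reproductive 1, 2 and 3. It rose by 1.65 (adjusted p = 0.0247, and 0.0655 without broody 3). NR0B2, an orphan receptor without a DNA-binding domain, rose by 1.25, or by 2.11 with a pseudocount of 0.1. NR0B2 reached the 1 FPKM required for testing only in the broody libraries, so its call is not counted as support. With at least 1 FPKM required in all libraries, 5 of the list were tested, with 0 higher and 1 lower. NR2F2, the orphan receptor COUP-TFII of stroma and vessels, fell by 0.90 to 26.6 ± 6.47 FPKM in broody against 50.5 ± 11.0 FPKM in reproductive libraries. GPER1, the membrane estrogen receptor, named after its values were seen, had 0.699 ± 0.357 FPKM in broody and 1.51 ± 0.238 FPKM in reproductive libraries, a difference of -0.58 (adjusted p = 0.0462, and 0.0635 to 0.107 without reproductive 1, 2 or 3). With a pseudocount of 0.1 the difference of GPER1 was -1.09 and the call was lost (adjusted p = 0.0517), as it was with the replicate block (0.0677) and the leading transcript (0.0791).

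Of 6 other PAQR and PGRMC relatives tested, 2 were higher and 0 lower by limma, or 33.3% called against 41.9% of all tested genes. Those with an unadjusted p under 0.05 numbered 2. PAQR3, a Golgi protein that restrains RAF kinase, rose by 0.82 and ADIPOR1, an adiponectin receptor, by 0.61, a call that median-ratio scaling ended (0.37, adjusted p = 0.112), as did leaving out broody 3, reproductive 2 or reproductive 3 (adjusted p = 0.0537 to 0.0687). PAQR7, the membrane progestin receptor mPR alpha, named after its values were seen, had 4.99 ± 0.559 FPKM in broody and 4.34 ± 0.503 FPKM in reproductive libraries, overlapped between groups and was not called (difference 0.16, adjusted p = 0.410, and -0.05 with median-ratio scaling). Its level was thus above those of PAQR8 and PAQR5 in both groups.

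Enzymes that make or remove the hormones before they reach the receptors included 4 higher and 1 lower of 13 tested, or 38.5% called, with a median of 0.32, or 0.07 with median-ratio scaling and 0.17 without reproductive 2. SRD5A1, a 5-alpha reductase, rose by 1.13 to 14.6 ± 1.63 FPKM in broody against 6.31 ± 2.01 FPKM in reproductive libraries, and SRD5A3, a related reductase that serves mainly protein glycosylation, rose by 0.66, or by 0.42 with median-ratio scaling. HSD17B2, also on the progesterone-responsive list, measured 85.9, 61.9 and 94.3 FPKM in broody 1, 2 and 3, against 42.4, 31.7 and 48.9 FPKM in reproductive 1, 2 and 3, so each broody library lay above the reproductive ones.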

How the data were processed

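The authors deposited FPKM for 33089 transcripts in 6 libraries. Trizol RNA was made into libraries with an Illumina TruSeq kit, per the labels' protocols, and HISAT2 and StringTie are named in the submitters' processing notes. The sources used here give no version, genome build or strand setting. Coordinates are therefore left out, and overlapping antisense genes cannot be told apart. Transcripts were summed per gene. Names came from the deposited table for 5 receptors and from RefSeq's gene table of the Taihu goose assembly for 3. Low values were checked for steps of whole reads in broody 1 and broody 2 only. Of 225 genes with 1 transcript and under 0.05 FPKM in both, at most 14 shared a ratio within 0.02 on the log2 scale. Read counts were not derived from this, so depth is unknown and count models were not applied. Library sums of FPKM lay between 319866 and 346625.

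Genes with at least 1 FPKM in 3 of 6 libraries were tested on log2(FPKM + 1) with limma 3.58.1 in R 4.3.3 (eBayes with a trend, no covariate, two-sided), a script tested on simulated data. Other summaries used pandas 2.3.3. A planned ratio with PGRMC1 could not be formed. The members, 10 context lists and 9 marker lists were chosen with earlier results of these data known, so they are described by counts and medians. Beside the receptors, up to 3 called genes of smallest p per list and 3 genes of closest profile per receptor were named. Alternatives covered the pseudocount, filter, scaling, trend, replicate block, leading transcript and each library left out.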

Additional observations from a re-analysis of the deposited data

How the results depend on the processing

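PGR, ESR1 and ESR2 kept their direction under each alternative that gave a value, and PGR and ESR1 were called in all but those without broody 1 or broody 2. Leaving out each library in turn gave differences of -2.31 to -1.64 for PGR, -0.85 to -0.73 for ESR1, 0.70 to 1.06 for ESR2, 0.48 to 0.68 for NR3C2, -0.35 to -0.13 for NR3C1 and 0.15 to 0.29 for PGRMC2. The receptors called were then 0 to 2 higher and 0 to 2 lower, and the genes called 0 to 3765 higher and 1 to 1225 lower. NR3C2 missed the threshold with no filter (0.55, adjusted p = 0.0501), the replicate block (0.55, adjusted p = 0.0744), the leading transcript (0.55, adjusted p = 0.0530), and median-ratio (0.32), upper-quartile (0.31) and quantile scaling (0.39). NR3C1 passed with upper-quartile (-0.50) and quantile scaling (-0.48), and PGRMC2 turned to -0.0360, -0.0492 and -0.0549 under the median-ratio, upper-quartile and quantile scalings.

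ESR2 was the 1 receptor called higher under each of the 3 scalings, under the replicate block and when the filter was dropped. A filter of 1 FPKM in every library left ESR2 untested, and NR3C2 was then the 1 receptor called higher. The leading transcript gave 0, and ESR2 was not tested there either. Genes called higher and lower were 1897 and 2136 with median-ratio scaling, 1776 and 2189 with upper-quartile scaling, 2198 and 1937 with quantile normalization, 2225 and 948 with the replicate block and 2180 and 967 with the leading transcript. In levels summed per gene, same-numbered libraries did not deviate together, with correlations of 0.11, -0.16 and -0.20 for numbers 1, 2 and 3. Such sums do not show how transcript models share a level, and there broody 1 and reproductive 1 were alike for ESR2. Its leading model took 7.66% and 4.11% of the total in them. The replicate block pairs samples by number, and whether the number stands for a shared step was not tested. Leaving out libraries, the log2 differences of ratios ran from -2.60 to -1.80 for ESR1 to ESR2, -1.55 to -0.83 for PGR to ESR1, -1.01 to -0.69 for NR3C1 to NR3C2 and -0.55 to 0.0831 for PAQR8 to PAQR5, which turned without broody 3. The cause of these shifts was not tested. Without counts, depth cannot be stated, and values under 1 FPKM are the least certain.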
